A study of Mus musculus with 7 samples.

Results

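The cytosolic ribosomal protein genes build the protein part of the ribosomes that translate nuclear mRNA, and their signals were described across mouse basal cell carcinoma, newborn epidermis and a carcinoma cell line. Members were all probe sets that the array annotation assigned to exactly 1 gene with a symbol of Rpl or Rps and a number, with an optional letter or short suffix, or with the symbol Rpsa, Rplp0, Rplp1 or Rplp2. S6 kinase genes and mitochondrial ribosomal protein genes were left out. The rule found 100 of 45037 probe sets, which stood for 46 of 18193 named genes, with 22 of the small subunit and 24 of the large subunit. A further 110 probe sets were assigned to a ribosomal protein gene together with other genes, and 28 ribosomal protein genes, among them Rplp1, Rpl3, Rpl5 and Rpl10, were represented by such shared probe sets only, so no gene-level value is given for them. The rule uses annotation and no measured value, but it was chosen with earlier results of these data known.

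The study measured RNA on 7 single-channel Affymetrix arrays. One sample type was dissected basal cell carcinoma, a skin tumour driven by the Hedgehog pathway (2 arrays), set against normal epidermis of newborn (P0) mice (2 arrays), and the labels give no strain, transgene, age or sex for the tumour mice. PDKC1, a mouse basal cell carcinoma line, was measured without treatment (0 h) and 6 h and 10 h into treatment, with 1 array per time. The drug was cyclopamine, a natural inhibitor of Smoothened, the membrane protein that passes on the Hedgehog signal, and its dose and vehicle are not given here. The labelling reactions started with 100 ng of total RNA in tissue samples and with 2000 ng in PDKC1, so amount of RNA and sample type cannot be told apart when PDKC1 is set beside a tissue. Both epidermis arrays are of newborn skin, so newborn age and normal tissue cannot be told apart either.

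Each ribosome has a small subunit, which reads the mRNA, and a large subunit, which joins amino acids and carries the exit tunnel and the stalk that recruits translation factors. Ribosomal proteins are made in matched amounts from widely scattered genes, and most of their mRNAs begin with a C followed by a stretch of pyrimidines (a terminal oligopyrimidine, or TOP, motif), through which growth signals acting by mTOR control their translation. Because their mRNAs are among the most abundant of growing cells and have many processed pseudogenes, microarray probes for them are often bright and often match several loci. Such near-identical copies cannot be separated from the named gene by these probe sets.

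The sequences around the annotated transcription start of some members are shown because a TOP motif, where an mRNA has one, begins at this start. They are 30 bases long, from 15 bases before the start to 15 bases from it onward, on the gene's strand and 5′ to 3′, from RefSeq on GRCm38.p6. Capitals mark a pyrimidine run, defined as a C followed only by C or T, at least 5 letters in all, with its first C within 10 bases of the annotated start. By the brightest probe set of each gene, the first 4 are members lower in tumour with a run and the next 2 without one. The last 3 are members whose difference between the tissues did not pass the test on that probe set. For Rpl35, dimmer probe sets with log2 differences of -1.22 and -1.65 were called lower in tumour and the rest were not called. For Rpl27 only the brightest was called.
Rps9, chr7:3704026-3704055, plus strand: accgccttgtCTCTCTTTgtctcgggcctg
Rpl14, chr9:120571502-120571531, plus strand: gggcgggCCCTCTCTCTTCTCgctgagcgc
Rps6, chr4:86857353-86857382, minus strand: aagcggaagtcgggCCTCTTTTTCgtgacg
Rps10, chr17:27635230-27635259, minus strand: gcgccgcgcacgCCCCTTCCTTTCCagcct
Rplp0, chr5:115559452-115559481, plus strand: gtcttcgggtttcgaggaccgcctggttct
Rpl27, chr11:101442230-101442259, plus strand: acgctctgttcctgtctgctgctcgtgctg
Rpl35, chr2:39005117-39005146, minus strand: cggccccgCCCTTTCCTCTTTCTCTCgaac
Rpl38, chr11:114668565-114668594, plus strand: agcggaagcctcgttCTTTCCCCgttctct
Rpsa, chr9:120127751-120127780, plus strand: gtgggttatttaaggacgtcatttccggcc

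Of the 46 members, 40 had a promoter entry, and 25 of these (62.5%) held a pyrimidine run at a start, beside 31.5% of 27025 genes with an entry. The motif ACTTCCG, the core to which ETS factors bind, was searched on both strands from 250 bases before to 50 bases after each start and was found for 13 of 40 members (32.5%), beside 7.2% of all genes with an entry. The letters overlap, since the CTTCC inside ACTTCCG is itself counted as a run where it stands close to a start. The shares were close between members lower in tumour and the others: a run was found for 12 of 19 members called lower in tumour (63.2%) and for 13 of 21 other members (61.9%), and ACTTCCG for 6 of 19 (31.6%) and 7 of 21 (33.3%). A match of letters is a description and not a binding site, and no match says only that these letters are not in the window.

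The quality of the arrays differed with the sample type. The ratio of 3′ to 5′ control probe sets for Actb was 11.3 and 93.1 in the tumours and 3.98 and 2.84 in epidermis, and lay between 1.15 and 1.21 in PDKC1. For Gapdh it was 10.6 and 15.4 in the tumours and 5.27 and 4.52 in epidermis, and lay between 0.699 and 0.741 in PDKC1. A high ratio means that little signal came from the 5′ end of the mRNA. Tumour 2 therefore stood apart from the other 6 arrays in the Actb ratio, and values for tumour 1 alone are given below for the members and counts that it moved most. In both ratios, tumour 1 also lay above both epidermis arrays, and these lay above PDKC1. RNA quality and sample type therefore cannot be told apart in any comparison below between sample types, also with tumour 1 alone.

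The labelled tissues were checked by marker genes. Of 6 keratinocyte markers 4 were lower in tumour, with summed intensities that reached 94638 and 68283 in the tumours against 187441 and 203029 in epidermis. Of 7 fibroblast markers 6 were higher in tumour, and their sums were 63658 and 76046 in the tumours against 14595 and 11825 in epidermis. All 3 measured Hedgehog markers were higher in tumour, with sums of 36256 and 44680 against 11919.8 and 12384 in epidermis. Muscle markers summed to 15369 and 3096 in the tumours and to 495 and 529.8 in epidermis, and 3 of 8 were called higher. Mast cell markers (3 of 4) and endothelial markers (2 of 5) were also called higher in tumour, whereas 1 of 4 macrophage markers was called lower and none of 3 T cell markers was called. No marker was listed at 0. In PDKC1 the keratinocyte sum lay between 61215 and 66131 and the fibroblast sum between 513 and 632. At 0 h the keratinocyte sum came mostly from Krt5 (31322) and Krt14 (33585). The differentiation markers Krt1, Krt10, Lor and Ivl read between 28.3 and 777 in the line at 0 h, against at least 17192 in epidermis. In such bulk samples, fewer cells of a type and less RNA per cell cannot be told apart, and the part of cell mixture in the results below was not tested.

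The first comparison asked how the ribosomal protein genes stood in carcinoma relative to normal epidermis. Signals were intensities, and differences are on the log2(intensity + 16) scale, tumour minus epidermis, with the brightest probe set of each gene. Differences lay below 0 for 41 of 46 members, and 22 (47.8%) were called lower at a limma adjusted p under 0.05, beside 12.5% of all genes, and 2 were called higher, beside 16.6% of all genes. The median member differed by -0.87, while the median of all genes differed by 0.09. Both tumours lay below both epidermis arrays for 37 members, beside 29.8% of all genes, and above both for 3 members, Rpl12, Rpl39l and Rps25, beside 35.8% of all genes.

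These counts depended on how arrays were scaled and on single arrays. After quantile normalization 4 of 46 members were called lower (8.7%), beside 14.8% of all genes, and the median member differed by -0.34 where the median of all genes differed by -0.19; the 4 were Rps9, Rpl14, Rps6 and Rpl37. With epidermis 1 left out 1 member was called lower, Rpl14, and with epidermis 2 left out 2 were, Rpl14 and Rps6, beside 2.95% and 3.4% of all genes called lower in those fits. With tumour 1 left out 29 members were called lower (63.0%), beside 18.4% of all genes, and with tumour 2 left out 30 were (65.2%), beside 14.2%, with a median of -0.72. In each fit with an array left out, 1 tissue had 1 array, so the spread came from the other tissue alone. Without the variance trend 4 members were called lower (8.7%), beside 8.65% of all genes. Nothing in the labels says that the arrays of a tissue came from separate mice, so the p-values reflect no more than the spread of these arrays, which may be technical.

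**Figure D1:**
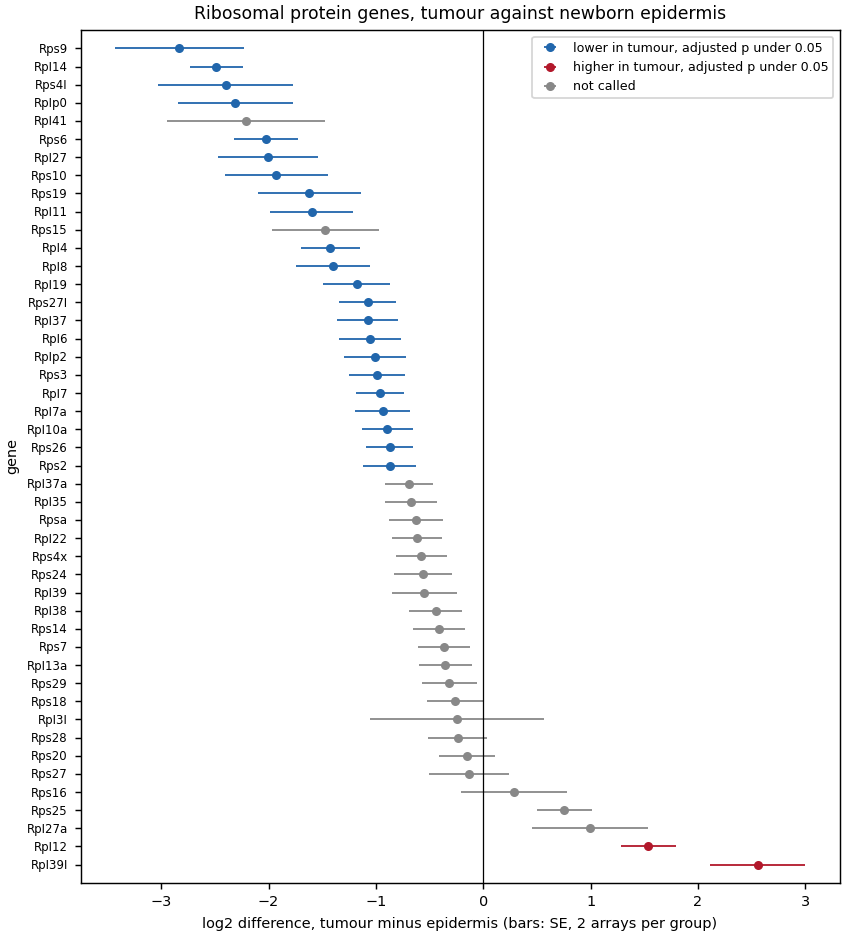
Difference in log2(intensity + 16) between tumour and newborn epidermis for each of the 46 ribosomal protein genes, ordered by size, with bars for the standard error from the fit (2 arrays per tissue). The points run between -2.83 for Rps9 and 2.56 for Rpl39l, and 41 of 46 lie below 0.

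Among the small subunit genes 9 of 22 were called lower in tumour and none higher, beside 12.5% and 16.6% of all genes. Their median was -0.60. Rps9, a core protein of the small subunit next to the mRNA channel, read 6488 and 1522 intensity units in the tumours and 22929.7 and 22053.5 in epidermis. Its difference was -2.83 (SE 0.60, adjusted p = 0.0141), and the groups did not overlap, although tumour 2 was well below tumour 1. Rps10, which sits near the mRNA entry and is ubiquitinated on collided ribosomes in human cells, had 10069.6 and 3313 in the tumours and 21736 and 22290.3 in epidermis. The difference of -1.93 (SE 0.48, adjusted p = 0.0254) was again carried more by tumour 2.

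Rps6, the small subunit protein that S6 kinases phosphorylate downstream of mTOR, was read by a dimmer probe set. It gave 1401 and 780.0 in the tumours and 4346 and 4248 in epidermis, a difference of -2.02 (SE 0.30, adjusted p = 0.00387). Both tumours lay clearly below epidermis. Rps19, a protein of the small subunit head that is mutated in Diamond-Blackfan anaemia, had 11309 and 3875 in the tumours and 18070.2 and 23002 in epidermis, with a difference of -1.62 (SE 0.48, adjusted p = 0.0437). Rpsa, a small subunit protein also described as a laminin receptor, had 27229.9 and 32106 in the tumours and 43949 and 47279.7 in epidermis. Its difference of -0.62 (SE 0.25) did not pass the test (adjusted p = 0.113), although the groups did not overlap.

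The remaining called small subunit genes were Rps3, Rps2, Rps26, Rps4l and Rps27l. Rps3, which lines the mRNA entry, differed by -0.99 (adjusted p = 0.0321), Rps2, also near the mRNA entry, by -0.87 (adjusted p = 0.0399) and Rps26, near the mRNA exit, by -0.87 (adjusted p = 0.0252). For Rps26 the arrays of each tissue were very close, with 12588 and 12547 in the tumours and 23183 and 22891 in epidermis. The chosen probe sets of Rps18, Rps29, Rps14 and Rps28, the brightest of that subunit over the 7 arrays, differed by -0.26, -0.32, -0.41 and -0.24, and none passed the test. A signal depends on its probes, so a bright probe set does not mean a higher mRNA level. Rps18 had 33642 and 43393.5 in the tumours and 45804.9 and 45779.4 in epidermis on this probe set. Its next 2 probe sets in brightness were both called lower in tumour, with differences of -0.98 (adjusted p = 0.0375 over all probe sets) and -1.84 (adjusted p = 0.0104), so the value for Rps18 depended on the probe set.

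Among the large subunit genes 13 of 24 were called lower in tumour and 2 higher, beside 12.5% and 16.6% of all genes. Their median was -0.95. Rpl14, a large subunit protein, had 449.9 and 336 in the tumours and 2101 and 2417 in epidermis. The difference of -2.49 (SE 0.25, adjusted p = 0.0011) rested on a dim probe set whose tumour values were close to each other. Rplp0, the base of the stalk on which Rplp1 and Rplp2 sit, had 14118 and 4067 in the tumours and 36899.5 and 38349 in epidermis, a difference of -2.31 (SE 0.53, adjusted p = 0.0193). Rplp2, the stalk protein itself, had 23848 and 15335 in the tumours and 38092 and 38974 in epidermis, and differed by -1.01 (SE 0.29, adjusted p = 0.0404). Both stalk genes were thus lower in both tumours than in either epidermis array.

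Rpl27, a large subunit protein reported as mutated in Diamond-Blackfan anaemia, had 9412 and 3248 in the tumours and 20384 and 24273 in epidermis, and differed by -2.005 (SE 0.47, adjusted p = 0.0203). Its other probe sets differed by -0.24 and -0.37 and were not called (adjusted p = 0.512 and 0.276 over all probe sets). The value for Rpl27 thus depended on the probe set. Rpl11, which together with Rpl5 and the small ribosomal RNA of the large subunit binds and inhibits Mdm2, had 9541 and 4223 in the tumours and 17755 and 20929 in epidermis, and differed by -1.60 (SE 0.39, adjusted p = 0.0224). On the chosen probe sets of Rpl27 and Rpl11, the tumours did not overlap epidermis and tumour 2 was the lower tumour. Rpl4, which lines the exit tunnel, had 17185.5 and 11618 in the tumours and 37367 and 38618 in epidermis, and differed by -1.43 (SE 0.27, adjusted p = 0.00999). Rpl8, close to the peptidyl transferase centre, differed by -1.40 (SE 0.35, adjusted p = 0.0247).

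Rpl41, a very short peptide at the bridge between the subunits, showed the widest gap between the tumours of any member. It had 21358 and 3557 in the tumours and 38596 and 42506 in epidermis, and its difference of -2.21 (SE 0.74) did not pass the test (adjusted p = 0.0641). Rpl13a, a large subunit protein that also acts in a translational silencing complex in human monocytes, was bright on every array, with 34381 and 35385 in the tumours and 46077 and 43209 in epidermis, and its difference of -0.36 did not pass the test (adjusted p = 0.342). That probe set was 1 of 4, and the other 3 were called lower in tumour, with differences of -2.10, -1.21 and -1.55 (adjusted p = 0.0206, 0.00943 and 0.00212 over all probe sets).

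Rpl12, a protein at the base of the stalk region, and Rpl39l were the members called higher in tumour, and both were read by dim probe sets. Rpl12 had 1113 and 885 in the tumours and 345 and 318 in epidermis, a difference of 1.54 (SE 0.26, adjusted p = 0.00611). Rps25, a small subunit protein needed for initiation at some viral internal entry sites, was above both epidermis arrays in both tumours, with 2844 and 4377 against 2044 and 2125 in epidermis, but its difference of 0.76 did not pass the test (adjusted p = 0.0675). Of the 13 members whose probe sets had a mean intensity under 10000, 5 were called lower and 2 higher. The shares of all genes, at any brightness, were 12.5% and 16.6%. Of the 33 brighter members 17 were called lower (51.5%) and 0 higher at an adjusted p under 0.05 in limma, and all 33 differences were below 0. Brightness was the mean over 7 arrays, so members such as Rps9, with 6488 and 1522 in the tumours, reached 10000 through epidermis and PDKC1 alone. These counts are therefore in part set by the choice of bright genes. Of the 260 other genes at this brightness 101 were called lower (38.8%) and 15 higher, and all 293 genes at this brightness had a median difference of -0.62, beside -0.90 for the 33 members. After quantile normalization 1 of the 33 was called lower and 0 higher, beside 32 lower and 47 higher of the 260 other genes, with medians of -0.29 for the members and -0.04 for the others.

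**Figure D2:**
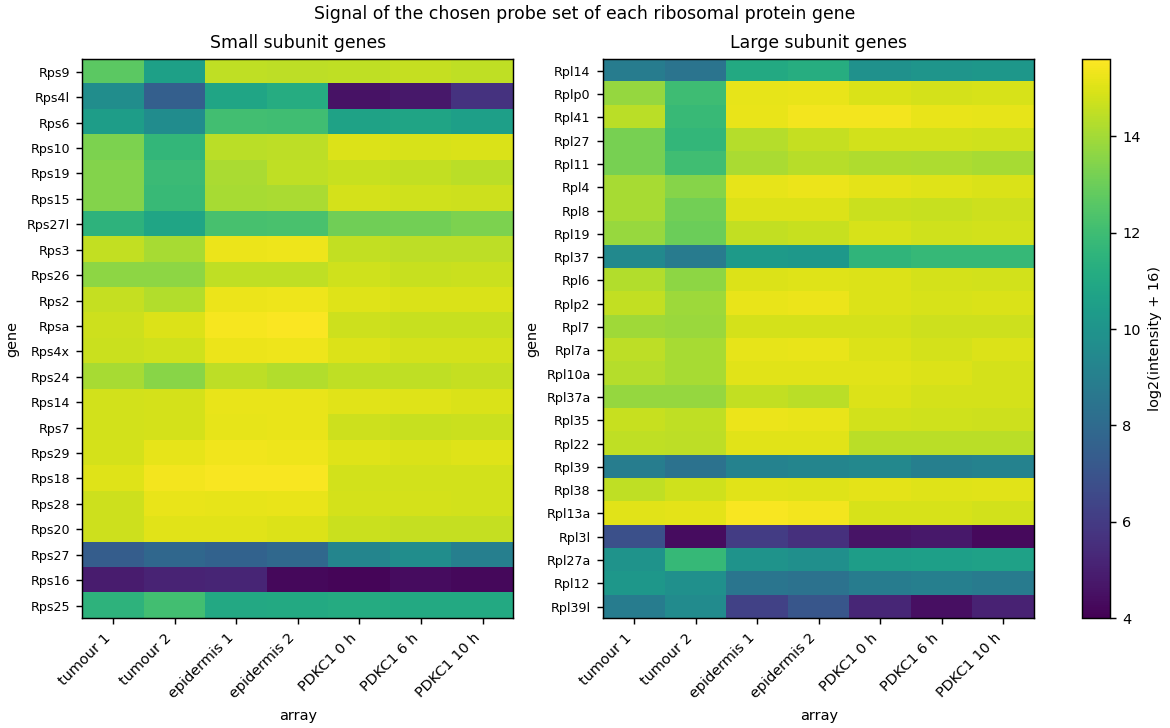
Intensities of the 46 ribosomal protein genes as log2(intensity + 16), by gene (rows, ordered by the difference between tumour and epidermis within each subunit) and array (columns); colours are to be read along a row, since probe sets differ in brightness. In the upper rows the tumour columns are darker than the epidermis columns, most of all tumour 2, whereas the PDKC1 columns are close to each other.

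The tumours were not alike in these genes. Of 44 members over the median probe set in at least 1 tumour, 9 (20.5%) were at least 2-fold lower in tumour 2 than in tumour 1, beside 9.12% of all such genes, and 1, Rpl27a, was at least 2-fold higher, beside 4.2%. The 9 were Rpl41, Rps4l, Rps9, Rplp0, Rps15, Rps10, Rps19, Rpl27 and Rpl11, by their chosen probe sets. The other probe sets of Rpl27 were higher in tumour 2 than in tumour 1, by 0.28 and 0.17. With tumour 2 left out, the differences were -1.79 for Rps9, -1.41 for Rplp0, -1.33 for Rps4l, -1.24 for Rpl27, -1.13 for Rps10, -1.01 for Rpl11, -0.92 for Rpl41, -0.85 for Rps19 and -0.64 for Rps15. All 9 thus lay below the epidermis mean in tumour 1 as well. That fit held 1 tumour array, so its spread came from the epidermis arrays alone and no calls are given. Rps15, a protein of the small subunit head, had 11330.5 and 3576.5 in the tumours and 17253 and 18117 in epidermis. In contrast the chosen probe sets of Rps20, Rps28, Rps18, Rps29, Rpl38 and Rpsa were higher in tumour 2 than in tumour 1. These gaps lay between 0.23 and 0.49. For Rps18 the next probe sets in brightness went the other way, by -0.55 and -1.17. Rpl38 is needed for Hox mRNA translation in mouse embryos. Rps20, a protein of the small subunit head, had 26535.5 in tumour 1 and 34269 in tumour 2, beside 34490.3 and 32392 in epidermis. The epidermis arrays were closer to each other: over the 33 brighter members their differences had an SD of 0.11, against an SD of 0.80 between the tumours, while over all 293 genes at this brightness the SDs were 0.16 and 0.76. Tumour 2 was also the array with the highest Actb ratio of 3′ to 5′ signal, and the part of that in these differences was not tested.

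**Figure D3:**
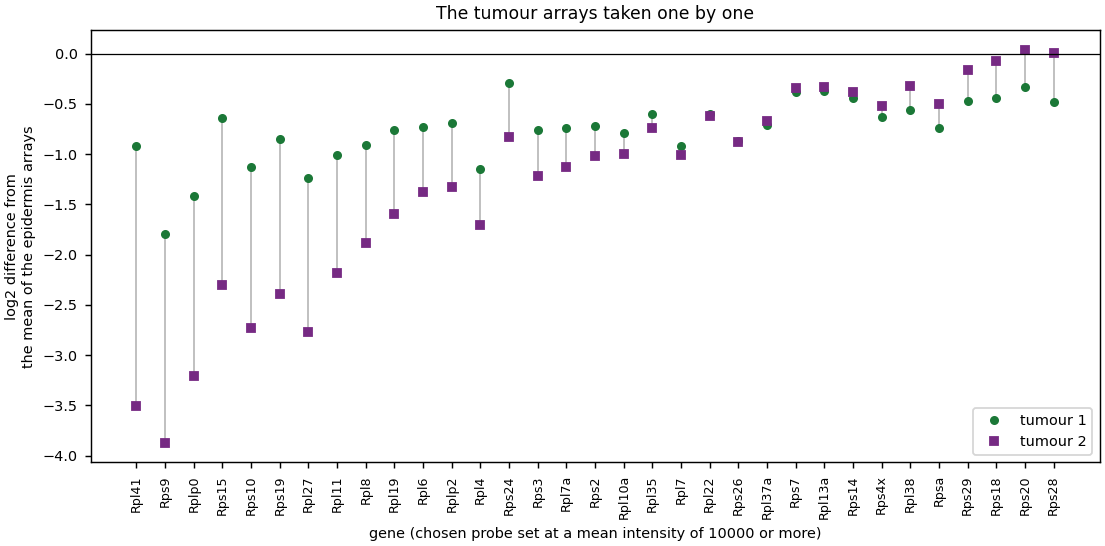
Difference of each tumour array from the mean of the epidermis arrays, in log2(intensity + 16), for the 33 ribosomal protein genes with a mean intensity of 10000 or more, ordered by the gap between the tumours. Tumour 1 lies between -1.79 and -0.29 for these genes, and tumour 2 between -3.87 and 0.04.

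Tumour 1 alone lay below the epidermis mean for all 33 brighter members, with a median of -0.74, beside 242 of all 293 genes at this brightness, with a median of -0.60. Tumour 2 lay below it for 31 of 33, with a median of -1.01, beside 219 of 293 with a median of -0.64, and the exceptions among the members were Rps20 and Rps28. Brightness was the mean over all arrays, with epidermis and PDKC1 among them. The counts and medians for both tumours are therefore in part set by the choice of bright genes. The share of each array's summed intensity that came from the chosen probe sets of the 46 members was 2.09% and 1.78% in the tumours and 2.86% and 2.94% in epidermis. Among the 450 brightest probe sets of an array, 43 and 33 were members' probe sets in the tumours and 51 and 51 in epidermis.

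Different probe sets of 1 gene did not always move the same way. At the level of probe sets 46 of 100 were called lower in tumour, beside 9.17% of all probe sets, and 6 were called higher, beside 18.3%. Rps9, Rps24 and Rpl41 each had probe sets called in opposite directions. For Rps9 the _s_at probe set described above was lower in tumour, whereas an _x_at probe set gave 12847 and 12657.5 in the tumours against 1099 and 877 in epidermis, a difference of 3.68 (SE 0.22, adjusted p = 0.000308 over all probe sets). In PDKC1 at 0 h the _s_at probe set read 23077 and the _x_at probe set 10594, so the line had signal on both.

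Rps24, a small subunit protein mutated in Diamond-Blackfan anaemia, has alternative 3′ exons and had 6 probe sets. Its brightest gave 17076 and 11749 in the tumours and 22579 and 19434 in epidermis and did not pass the test (difference -0.56, adjusted p = 0.169). A pair of others was called lower, with differences of -1.67 and -1.21. An _at probe set gave 1598 and 1435 in the tumours and 69.9 and 61.9 in epidermis, a difference of 4.23 (SE 0.29, adjusted p = 0.00039 over all probe sets). For Rpl41 a pair of dim probe sets was higher in tumour by 2.26 and 2.13, while a bright one with 10474 and 3689 in the tumours and 29252 and 25197 in epidermis was lower in tumour (difference -2.12, SE 0.46, adjusted p = 0.0127). The sequences that single probes match were not used here.

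**Figure D4:**
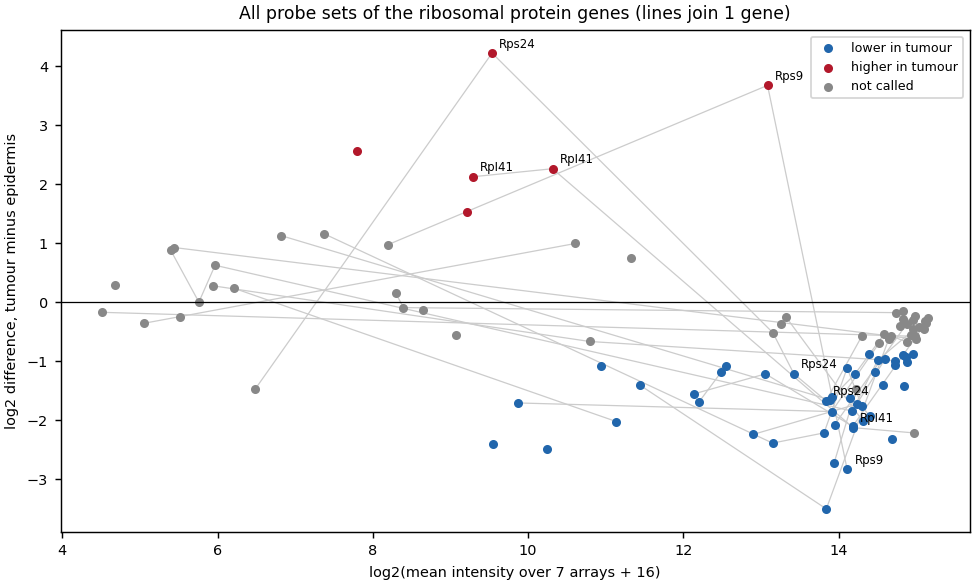
Difference between tumour and epidermis (log2) of all 100 probe sets of ribosomal protein genes against their log2(mean intensity over 7 arrays + 16); grey lines join probe sets of the same gene. Probe sets called lower lie mostly at the bright end, and Rps9, Rps24 and Rpl41 have probe sets called in both directions.

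The difference varied with brightness. The 24 probe sets with a mean intensity under 1000 had a median of 0.26, the 10 between 1000 and 5000 a median of -1.24, the 27 between 5000 and 20000 a median of -1.65, and the 39 at 20000 or more a median of -0.62. Between 5000 and 20000, 22 of 27 were called lower and 1 higher, beside 9.17% and 18.3% of all probe sets at any brightness. Shares of other probe sets at like brightness are not given, so this pattern is not shown to be particular to the members. The probe sets between 5000 and 20000 also had the widest gap between the tumours, with a median of -1.04 for tumour 2 minus tumour 1. At 20000 or more that median was -0.01. The 110 shared probe sets, which the rule did not use, had 35 called lower (31.8%) and 5 higher, beside the same 9.17% and 18.3%. Their median was -0.62, where that of all probe sets was 0.19.

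Members with an l suffix are close copies of other ribosomal protein genes. Rpl39l, a copy of Rpl39 used in mouse male germ cells, had 455 and 755 in the tumours and 60.1 and 122 in epidermis, a difference of 2.56 (SE 0.44, adjusted p = 0.00677). In PDKC1 it read 21.4, 6.2 and 18.2 at 0, 6 and 10 h, all below the 4 tissue arrays. Rpl39 itself, a protein of the exit tunnel, had 473 and 311 in the tumours and 545 and 596 in epidermis and did not pass the test (difference -0.55, adjusted p = 0.228).

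Rps4l, a copy of Rps4x, was the member that separated line and tissue most. It had 803 and 169 in the tumours and 1796.5 and 2316 in epidermis (difference -2.40, SE 0.63, adjusted p = 0.030), against 7.6, 11.1 and 35.7 in PDKC1 at 0, 6 and 10 h. Rps4x read between 25922.5 and 40593.5 over the 4 tissue arrays and 32497 in PDKC1 at 0 h, so the copy and its parent gene had different patterns. Rps27l, a copy of Rps27 that p53 induces, had 2865 and 1779 in the tumours and 4718 and 4854 in epidermis (difference -1.08, adjusted p = 0.0246). It was higher in PDKC1, with 8570.4, 8987 and 10089 at 0, 6 and 10 h, all above the 4 tissue arrays.

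Rpl3l, a copy of Rpl3 found in striated muscle, had 97.7 and 4.6 in the tumours and 51.5 and 32.7 in epidermis, and the groups overlapped. Tumour 1, where it was highest, was also the array with the highest muscle marker sum, and the part of muscle in this value was not tested. Rpl22l1 and Rpl7l1, relatives of Rpl22 and Rpl7 outside the rule, were lower in tumour. Rpl22l1, which Rpl22 represses in mouse cells, had 6745 and 3333 in the tumours and 17779 and 15777 in epidermis (difference -1.82, adjusted p = 0.00955), and Rpl7l1 differed by -0.81 (adjusted p = 0.0401). Rpl22 itself had 22795 and 22563 in the tumours and 34978 and 34443 in epidermis, and its difference of -0.61 did not pass the test on its brightest probe set (adjusted p = 0.0948). Its other 2 probe sets were called lower, with differences of -3.50 (adjusted p = 0.000696 over all probe sets) and -1.40 (adjusted p = 0.00779).

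The second comparison followed PDKC1 through 10 h of cyclopamine. The ribosomal protein genes stayed close to their 0 h signals. On the same arrays the 3 measured Hedgehog markers summed to 3266, 1059 and 811 at 0, 6 and 10 h, and each was below 0 h at both times. With 1 array per time there is no replicate check and no test. Of 42 members over the median probe set in at least 1 PDKC1 array, 0 were at least 2-fold lower at both 6 h and 10 h, beside 1.01% of all such genes, and 0 were at least 2-fold higher at both, beside 0.924%. At 1.5-fold the counts were also 0 in each direction, beside 2.83% and 2.56%. The median member differed from 0 h by -0.08 at 6 h and by -0.08 at 10 h, where the medians of all genes were -0.02 and -0.01.

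Within this narrow range more members lay below 0 h than above it. By any amount, 28 of 42 (66.7%) were below 0 h at both times, beside 34.9% of such genes, and 6 (14.3%) were above it at both, beside 34.1%. The direction depended on scaling: after quantile normalization the medians were 0.03 at 6 h and 0.02 at 10 h, and after centring each array on its median it was 0.02 at 6 h but -0.04 at 10 h. The highest intensity of any probe set on the array was 45054, 42293 and 40472.5 at 0, 6 and 10 h. For the 33 brighter members the SD over genes of the difference was 0.05 at 6 h and 0.07 at 10 h, beside 0.21 and 0.33 for all 293 genes at that brightness. These values share the single 0 h array.

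Rpl41 had 43084, 37893 and 36949 at 0, 6 and 10 h, differences of -0.19 and -0.22 from 0 h. Rpl6, a large subunit protein, had 32092, 29130.0 and 28464, and Rpl4 had 35988, 33250.3 and 31713. Each of the 3 was highest at 0 h and lowest at 10 h. Rpl39, on its dim probe set, had 673, 503 and 545, with differences of -0.41 and -0.30, and lay furthest below 0 h of all members when the smaller of both differences is taken. Rps4x, Rpl37a and Rps26 were also among the 8 members that lay furthest below 0 h at both times, with differences between -0.14 and -0.11, and the other was Rpl39l at signals near background.

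Above 0 h at both times, members with dim probe sets led. Rpl14 had 919, 1043 and 1119 at 0, 6 and 10 h, differences of 0.18 and 0.28. Rpl37, a large subunit protein with a zinc-binding fold, had 3102, 3511 and 3468, and Rpl27a, a large subunit protein, had 1389, 1482 and 1596. Rps27l differed by 0.07 and 0.23. Rps9 differed by 0.07 and 0.0077, and Rpl22 by 0.0042 and 0.0084, and Rps4l and Rps16, at or near background throughout, had the other differences above 0.

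**Figure D5:**
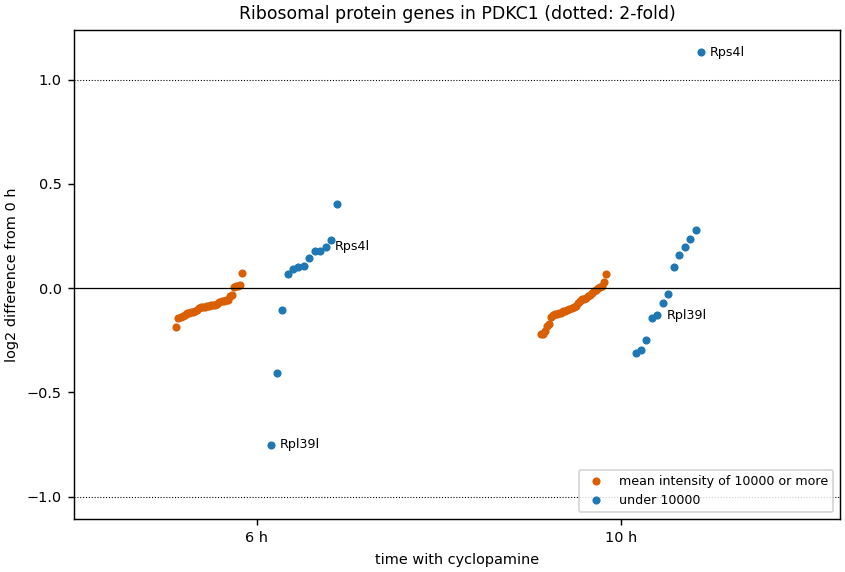
Difference from 0 h, in log2(intensity + 16), of the 46 ribosomal protein genes in PDKC1 after 6 h and 10 h with cyclopamine, 1 array per time, sorted within each brightness class; dotted lines mark 2-fold. The 33 brighter genes lie between -0.19 and 0.07 at 6 h and between -0.22 and 0.07 at 10 h, and Rps4l at 10 h, with 35.7 intensity units against 7.6 at 0 h, is the point beyond 2-fold.

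The third comparison set untreated PDKC1 beside both tissues. On the chosen probe sets, the line was closer by the median to epidermis than to the tumours for these genes. The median member was 0.72 above the tumour mean and differed by -0.11 from the epidermis mean. With _at probe sets only this order was reversed, as given at the end. Of 44 members over the median probe set, 15 were at least 2-fold higher in PDKC1 at 0 h than in both tumours, beside 16.6% of all genes so filtered, and 2 were at least 2-fold lower, beside 26.9%. Against epidermis 2 were at least 2-fold higher, beside 17.6%, and 4 at least 2-fold lower, beside 22.1%. Against tumour 1 alone 15 were at least 2-fold higher, beside 19.7%, and 3 lower, beside 31.2%, and the median member was 0.50 above it. The 33 brighter members were a median of 0.77 above the tumour mean, where all 293 genes at this brightness were 0.04 above it. Brightness was the mean over all arrays, PDKC1 included, so both medians are in part set by the choice of bright genes.

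Rps10 read 32028 in untreated PDKC1 cells, beside 10069.6 and 3313 in the tumours and 21736 and 22290.3 in epidermis. Rps15 had 29311 in the line, above the 11330.5 and 3576.5 of the tumours and the 17253 and 18117 of epidermis. Rpl37a, a large subunit zinc-finger protein, had 32417 in the line, 13709 and 14063 in the tumours and 23384 and 21473.5 in epidermis. These members were thus above all 4 tissue arrays, as were 15 members in all, beside 25.0% of all genes.

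Rps27 and Rpl37 showed the widest gap above the tissues, on dim probe sets. Rps27, a small subunit zinc-finger protein, had 604 in PDKC1 at 0 h, 154 and 221 in the tumours and 183 and 227 in epidermis. Rpl37 had 3102 in the line, 714 and 443 in the tumours and 1256 and 1157 in epidermis. Below all 4 tissue arrays lay 9 members, beside 32.2% of all genes. Apart from Rps4l and Rpl39l these gaps were small: Rps18 had 28964 in the line and at least 33642 in each tissue array, Rpl13a 30354 and at least 34381, and Rps7, a small subunit protein needed for early subunit assembly, 26558 and at least 28539. Each of these 3 genes also had a probe set on which the line lay above all 4 tissue arrays: 26789 against at most 20444 for Rps18, 27730 against at most 23826 for Rpl13a and 24369 against at most 14414 for Rps7. For Rps16, listed at 1.9 in the line and at most 20.7 in tissue, the probe set gave no usable signal. With all arrays, the members' share of summed intensity was 2.84%, 2.72% and 2.71% in PDKC1 at 0, 6 and 10 h, and 60, 59 and 61 of the 450 brightest probe sets were members'.

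Other genes of ribosome production and translation were read from lists. The first held 18 measured genes, translation factors and others, whose mRNAs carry or are thought to carry a TOP motif. Npm1, Tpt1, Hnrnpa1, Nap1l1, Naca and Btf3 on it are not translation factors. Of the 18 genes 13 were called lower in tumour, Npm1, Naca and Btf3 among them, and 1 higher, beside 12.5% and 16.6% of all genes. The median of the list was -0.97. After quantile normalization 4 were called lower and 2 higher, beside 14.8% and 11.9%, with a median of -0.50. By the definition used above, a pyrimidine run was found for 4 of the 13 listed genes with a promoter entry (30.8%), beside 31.5% of all genes. Eef1d, a subunit of the exchange factor of translation elongation, differed by -2.15 (adjusted p = 0.00568), and the initiation factor subunits Eif3m and Eif3k by -2.08 (adjusted p = 0.00693) and -1.97 (adjusted p = 0.0133). The gene called higher was Hnrnpa1, an RNA-binding protein, at 0.76 (adjusted p = 0.0316). Rps3a1, a small subunit protein outside the symbol rule, had 24481 and 17187 in the tumours and 44497 and 44467.5 in epidermis, and differed by -1.12 (adjusted p = 0.0240). Fau, which encodes the small subunit protein Rps30 fused to a ubiquitin-like protein, had 8546 and 2099.9 in the tumours and 13548 and 16007 in epidermis, and its difference of -1.79 did not pass the test (adjusted p = 0.0610).

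Of 41 measured ribosome biogenesis genes 16 were called lower in tumour and 4 higher, beside 12.5% and 16.6% of all genes, with a median of -0.79. Quantile normalization gave 19 lower and 4 higher, beside 14.8% and 11.9%. Eif6, which keeps free large subunits from joining, differed by -2.34 (adjusted p = 0.00319), Nhp2, a protein of the RNA pseudouridylation complex, by -2.26 (adjusted p = 0.00204) and Bysl, needed for small subunit maturation, by -2.08 (adjusted p = 0.00484). Higher in tumour were Utp20, of the small subunit processome, at 0.999 (adjusted p = 0.0140), Tcof1, which supports ribosomal RNA transcription, at 0.95 (adjusted p = 0.0479), Wdr43 at 0.83 (adjusted p = 0.0279) and Gnl3, which encodes nucleostemin, at 0.74 (adjusted p = 0.0340). In PDKC1 38 of the 41 were below 0 h at 10 h, against 25 of 41 at 6 h, with medians of -0.30 at 10 h and -0.03 at 6 h. Of all 18193 genes, 9351 lay below 0 h at 10 h and 9568 at 6 h. The ribosomal protein genes had a median of -0.08 at both times.

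The RNA polymerase I list, for the enzyme that makes ribosomal RNA, had 3 of 14 genes called higher in tumour and 3 lower, beside 16.6% and 12.5% of all genes. Taf1d and Taf1a, subunits of its promoter selectivity factor, differed by 3.31 (adjusted p = 0.00107) and 1.57 (adjusted p = 0.00381), and the enzyme subunit Cd3eap by -1.33 (adjusted p = 0.0153). Of 10 translation control genes Mycn, a Hedgehog-responsive transcription factor gene, was higher in tumour by 2.62 (adjusted p = 0.000660), and Eif4e, the cap-binding factor, Rps6kb2, an S6 kinase gene, and Myc were lower, with differences of -2.87 (adjusted p = 0.00263), -2.35 (adjusted p = 0.0203) and -2.11 (adjusted p = 0.0101). Of 76 mitochondrial ribosomal protein genes, whose products form a separate ribosome, 30 were called lower and 2 higher, beside 12.5% and 16.6% of all genes, with a median of -0.82. After quantile normalization 35 were lower and 2 higher, beside 14.8% and 11.9%. Mrps22 had 459 and 369.6 in the tumours and 2109 and 1974 in epidermis, a difference of -2.26 (adjusted p = 0.0012). Against the tumour mean, PDKC1 at 0 h was a median of 1.43 higher for the mitochondrial list and 0.72 higher for the cytosolic ribosomal protein genes.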

How the data were processed

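The deposited table holds a signal intensity per probe set on a linear scale, made by the authors; which software summarised the probes and how it scaled arrays is not stated in the sources used here, and no further normalization was applied in the main setting. Of 45101 probe sets, 64 controls were left out; 932 with several genes and 9160 without a gene name entered no gene-level test. Each of 18193 genes was represented by its probe set of highest mean log2 signal over 7 arrays. Tumour and epidermis were compared on log2(intensity + 16) with limma 3.58.1 in R 4.3.3 (lmFit, eBayes with a variance trend; two-sided), with Benjamini-Hochberg adjustment over 18193 genes, or over 45037 probe sets for probe-set calls. PDKC1, with 1 array per time, was described among genes over the array's median probe set in at least 1 array. Tables were made with pandas 2.3.3 in Python 3.11.15. The fit was tested on simulated data. Precision is limited by the number of arrays.

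The members, gene lists, tests and naming rule were chosen with earlier results of these data known. Members named were the largest called differences in each direction, those with an l suffix, the brightest and dimmest, those furthest from 0 h at both times or outside both tissues in PDKC1, those with probe sets called in opposite directions and a set of stalk, head and Mdm2-related genes; Rpl8, Rpl35, Rpl38, Rps2, Rps3, Rps20 and Rps25 were added after their values were seen. From each list up to 3 called genes with the largest differences were named, and Hnrnpa1, Myc and the biogenesis genes higher in tumour were also chosen after their values were seen. Alternatives were centring every array on its own median, quantile normalization, pseudocounts of 4 and 64, leaving out genes under the 40th percentile, the mean of all probe sets, _at probe sets only, no variance trend, a replicate block, all 7 arrays in 1 fit, leaving out each tissue array, all probe sets as features and a 1.5-fold threshold. The mean of probe sets at 1000 or more, members at 10000 or more, shared probe sets and PDKC1 against single tumours were added after the data were seen.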

Additional observations from a re-analysis of the deposited data

How the results depend on the processing

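With 2 arrays per tissue, the calls rest on few arrays, and dim probe sets limit members such as Rps16 and Rpl3l. Calls of Rpl14 held under all 14 alternatives run for single members. Under quantile normalization 4 members were called lower (8.7%, beside 14.8% of all genes). The median member differed by -0.34 against -0.19 for all genes, a gap of -0.15, where the deposited scale gave -0.96 relative to all genes. Centring each array on its median gave 38 lower (82.6%, beside 25.9% of all genes). The median was then -1.51, against -0.55 for all genes, again -0.96 relative to them. The mean of all probe sets gave 14 lower (30.4%, beside 10.4% of all genes) and no variance trend 4 lower (8.7%, beside 8.65%). The _at probe sets alone (25 members) gave 7 lower (28.0%) and 4 higher, beside 11.7% and 15.7% of all genes. The median member then differed by -0.13, against 0.095 for all genes. Probe sets as features gave 46 lower and 6 higher of 100, and shared probe sets 35 and 5 of 110, beside 9.17% and 18.3% of all probe sets. Members at 10000 or more had 0 higher. Leaving out single arrays gave between 1 and 30 lower, between 0 and 4 higher, and medians between -1.003 and -0.72; the lone array was then assumed to vary like the other tissue. With a replicate block 22 members were lower and 2 higher, as without it, beside 12.2% and 15.9% of all genes. Rpl10a and Rps2 then lost their calls while Rpl41 and Rps15 gained one. Same-numbered tumour and epidermis arrays did not deviate together (r = -0.000636 over 18193 genes). With 2 arrays per tissue this sets 1 contrast against 1 other, so it cannot show whether the numbers pair anything.

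Single members changed sign as follows, with the new direction called only for Rpl41 and Rps24 with _at probe sets. Quantile normalization gave Rpl13a 0.057, Rpl38 0.11, Rps14 0.10, Rps18 0.11, Rps20 0.33, Rps24 0.091, Rps28 0.21, Rps29 0.11 and Rps7 0.14. Using _at probe sets gave Rpl35 1.13, Rpl41 2.13, Rps10 1.17, Rps18 0.63, Rps24 4.23 and Rps9 0.98, and the mean of all probe sets gave Rpl41 0.014, Rps9 0.61 and Rpsa 0.15. Centring gave Rps16 -0.35. Leaving out single arrays turned Rpl3l (between -1.48 and 0.99), Rps16 (between -0.18 and 0.76), Rps20 (between -0.33 and 0.036), Rps27 (between -0.37 and 0.11) and Rps28 (between -0.48 and 0.0061). The causes were not tested, beyond the fewer or other probe sets that an alternative used.

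In PDKC1 quantile normalization gave medians of 0.030 at 6 h and 0.016 at 10 h, and centring 0.016 at 6 h and -0.042 at 10 h. Of PDKC1 at 0 h against the tumours, quantile normalization gave 8 members at least 2-fold higher and a median of 0.43. With _at probe sets these values were 7 and 0.11, and centring gave a median of 1.28. With 1 tumour left out between 15 and 21 members were higher, beside 19.7% and 24.2% of all genes so filtered. Lower were 3, beside 31.2% and 31.5%, and the median lay between 0.50 and 0.98. Against epidermis the median turned to 0.093 with quantile normalization, 0.053 with the mean of all probe sets and 0.23 with _at probe sets. With _at probe sets the median was thus further from epidermis than from the tumours (0.23 against 0.11). Against epidermis 4 members were higher with the mean of probe sets, 5 with _at probe sets and 4 at 1.5-fold, where 8 were lower. Apart from the single tumours, shares over all genes are not given for these PDKC1 counts. The members' share of summed intensity averaged 3.04% in tumour, 4.60% in epidermis and 4.89%, 4.69% and 4.70% in PDKC1 at 0, 6 and 10 h with all their probe sets, and 2.16%, 2.58%, 2.79%, 2.83% and 2.86% in the same order after quantile normalization.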
